A study of Mus musculus with 8 samples.

Results

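The genes described here are *Fezf2* and 9 genes that mark or specify the projection neurons of the deep cortical layers, namely *Bcl11b*, *Crym*, *Ldb2*, *Pcp4*, *Tbr1*, *Tle4*, *Foxp2*, *Sox5* and *Etv1*. They were taken by symbol from the transcripts counted, with 1 transcript for each gene, and make up 10 of the 38031 genes in the count table. All 10 passed the filter on low counts. RNA-seq libraries of total RNA were made from the primary motor cortex (M1) of male Swiss Webster mice injected at P21 to P25 with a lentivirus (LV) and dissected at P49 to P53. The LV expressed mCherry and an shRNA under the *Synapsin I* promoter, which is active in neurons, and it carried either the *Fezf2 shRNA* (4 libraries) or a *non-silencing shRNA* (4 libraries, the controls), so that surgery, virus, reporter and expression of an shRNA were common to both groups. The comparison asks whether these genes differ in mature M1 when *Fezf2* is reduced. The tissue was cut out by its mCherry fluorescence with all cortical layers and the meninges, and so holds transduced neurons together with other cells. In such bulk samples, fewer cells of a type and less RNA per cell cannot be told apart.

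*Fezf2* encodes a zinc finger transcription factor that in development specifies neurons of layer 5 that project below the cortex, the corticospinal neurons among them, and it stays on in deep-layer neurons of the adult. In development it acts above *Bcl11b* (CTIP2), a zinc finger factor needed for corticospinal axons to grow out. *Tbr1* is the T-box factor of corticothalamic neurons in layer 6, which also express the co-repressor *Tle4* and the forkhead factor *Foxp2*, and *Sox5* is an SRY-box factor that controls the sequence in which deep-layer neurons are made. *Crym* (mu-crystallin, a thyroid hormone binding protein), *Ldb2* (a LIM domain binding protein), *Pcp4* (a calmodulin-binding peptide) and *Etv1* (an ETS factor, also called Er81) are markers of layer 5 neurons or of subsets of them.

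Each treatment had its own shRNA, and that of the controls was not examined. The site of the *Fezf2 shRNA* is printed here because *Fezf2* alone among the 10 genes holds all of it. The first line is the 19-nt sense strand as the study lists it and the second the antisense strand, which pairs with the mRNA. The third is the stretch of the annotated *Fezf2* transcript around the site, 5′ to 3′, with the site in capitals:
sense: gggaactacaagaatcaca
antisense: tgtgattcttgtagttccc
transcript: aaaaaGGGAACTACAAGAATCACAagctc
The site covers bases 1531 to 1549 of the 2188-nt transcript ENSMUST00000022262 (GENCODE M21 on GRCm38, minus strand of chromosome 14). It lies in the coding sequence and crosses the last exon junction, with its first base at 12343639 in exon 4 and the other 18 bases at 12342741 to 12342758 in exon 5 of 5. Of the 3 annotated *Fezf2* transcripts, 2 hold the site. Among the annotated transcripts of the other 9 genes, the longest run shared with the sense strand was 10 nt, in *Foxp2*. *Sox5* and *Etv1* shared 8 nt, and the other 6 genes 6 or 7 nt. A run of 10 nt or more was found in 2.91% of 55341 annotated gene symbols and one of 8 nt or more in 29.3%.

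*Fezf2* was lower in M1 treated with *Fezf2 shRNA*. It had 688, 767, 735 and 702 normalized counts in the 4 control libraries and 621, 583, 568 and 592 in the 4 *Fezf2 shRNA* libraries. Normalized counts are reads divided by the effective size of the library and multiplied by the mean effective size. The highest knockdown library lay below the lowest control, and the treatments did not overlap. The mean was 723 ± 35.4 in controls against 591 ± 22.1 after knockdown (SD, n = 4 each), which is 18.2% lower. The log2 fold change was −0.29 (standard error 0.0781, 95% interval −0.46 to −0.12). The edgeR quasi-likelihood p of 0.00352 became 0.0824 after Benjamini-Hochberg adjustment over the 9959 genes tested, so *Fezf2* did not pass the threshold used throughout, an adjusted p of at most 0.05 together with a log2 fold change of 0.2 or more in either direction. The exact two-sided permutation test gave 0.0286, the smallest p that 4 against 4 libraries allow. The coefficient of variation between libraries was 4.90% in controls and 3.74% after knockdown, against 3.90% from counting alone if every read were independent. The libraries were paired-end, and the counts per library exceed the aligned pairs that the study gives. Both reads of a pair may thus have been counted, and the counting error would then be larger.

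None of the 10 genes passed the threshold with edgeR, where 3 had an unadjusted p under 0.05 (*Fezf2*, *Crym* and *Sox5*), against 19.6% of all genes tested. With DESeq2, 1 of the 10 passed it (*Fezf2*, adjusted p = 0.0256), against 7.55% of all genes tested. Over the whole table, 208 of the 9959 genes tested passed it with edgeR (2.09%, of which 195 increased and 13 decreased, the latter 0.131% of genes tested). Of the 10 genes, 7 had a negative log2 fold change and 3 a positive one, with a median of −0.11 beside −0.03 over all genes tested. An unadjusted p under 0.05 with a lower level after knockdown was reached by *Fezf2* and *Crym*, 2 of 10, where 7.73% of all genes tested reached it. These 2 were also the ones with every knockdown library below every control, a pattern found in 4.41% of genes tested. None of the 10 had every knockdown library above every control, which was the case for 7.41% of genes tested.

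**Figure D1:**
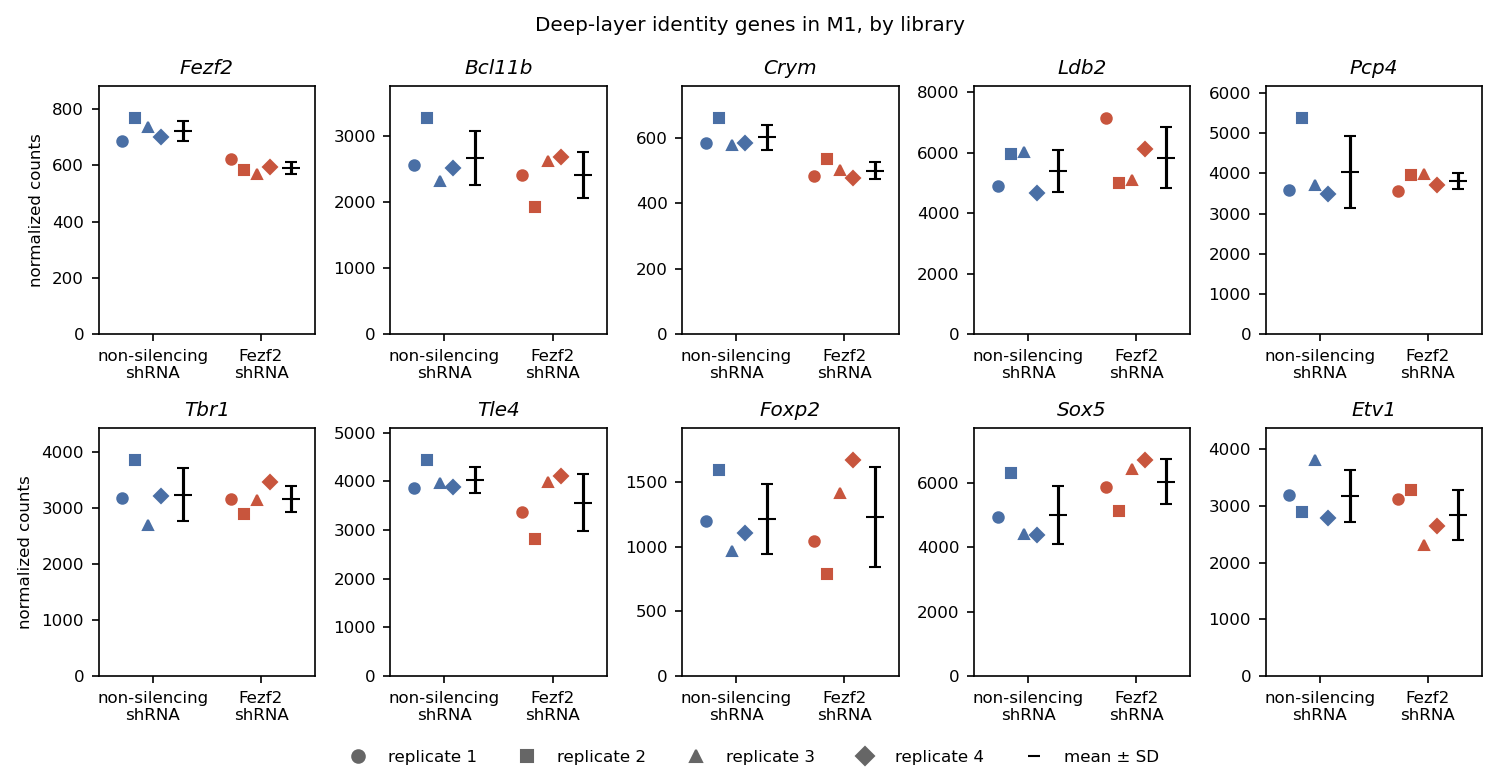
Normalized counts (vertical axes, each from 0) of the 10 deep-layer identity genes in the 4 *non-silencing shRNA* libraries (blue) and the 4 *Fezf2 shRNA* libraries (red), with the symbol giving the replicate and the bar the mean ± SD. *Fezf2* and *Crym* separate the treatments, with the knockdown libraries of *Fezf2* at 568 to 621 and the controls at 688 to 767, and the other 8 genes overlap.

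*Crym*, the layer 5 marker that binds thyroid hormone, came closest to *Fezf2* in size of difference among the genes that were lower. Its controls had 582, 659, 578 and 585 normalized counts and its *Fezf2 shRNA* libraries 482, 535, 501 and 477. Over the whole interval every knockdown library was below every control, and the second control library stood above its 3 fellows. The log2 fold change was −0.27 (standard error 0.0854, 95% interval −0.46 to −0.08), with an edgeR adjusted p of 0.125 and an exact permutation p of 0.0286. Without the second control library the log2 fold change was −0.22. In 4974 bases shared with a shorter transcript, 53.9% exon, the log2 fold change was −0.13 (standard error 0.141, exact permutation p = 0.343). There the second *Fezf2 shRNA* library, at 290 normalized counts, was above every control (236 to 267). In the other 10758 bases, mostly outside annotated exons, the log2 fold change was −0.38 (standard error 0.115, exact permutation p = 0.0286). The difference between these stretches was not tested.

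*Bcl11b*, which acts below *Fezf2* in development, did not separate the treatments. The controls had 2562, 3261, 2310 and 2510 normalized counts and the *Fezf2 shRNA* libraries 2399, 1920, 2623 and 2669. The 2 libraries numbered 2 held the highest and the lowest value of all, and the other 6 lay between 2310 and 2669. The mean was 2661 ± 414 in controls and 2403 ± 343 after knockdown (SD, n = 4 each). That is −0.15 on the log2 scale (standard error 0.125, edgeR adjusted p = 0.525). The 95% interval ran from −0.42 to 0.13, so a decrease as large as that of *Fezf2* and a small increase both lie within it. The value was −0.03 without the second control library and −0.05 without the second *Fezf2 shRNA* library.

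The other markers of layer 5 neurons differed by less than their spread between libraries. *Pcp4* had 3583, 5373, 3704 and 3479 normalized counts in controls and 3567, 3971, 3999 and 3710 after knockdown. One control library stood far above the rest, and without it the log2 fold change turned from −0.08 (standard error 0.126, edgeR adjusted p = 0.743) to 0.09. The *Pcp4* interval overlaps that of a second annotated gene on the same strand, which carries the symbol *Igsf5*, over 57975 of its 58188 bases, and the reads counted for that gene came to 97.9% of those counted for *Pcp4*, so the 2 share almost all of their reads. *Etv1* ranged from 2793 to 3806 in controls and from 2309 to 3275 after knockdown, a difference of −0.16 on the log2 scale (standard error 0.125, edgeR adjusted p = 0.486) that ranged from −0.24 to −0.05 with 1 library left out, the latter without control replicate 3 (without *Fezf2 shRNA* replicate 3 it was −0.06). *Ldb2* ranged from 4675 to 6038 in controls and from 4999 to 7142 after knockdown. The highest *Ldb2* value, 7142, was that of the first *Fezf2 shRNA* library, and the log2 fold change of the gene was 0.11 (standard error 0.124, edgeR adjusted p = 0.630), and 0.0044 without that library.

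The corticothalamic genes of layer 6 were no more uniform. *Tle4*, the co-repressor, had 3868, 4429, 3971 and 3872 normalized counts in controls and 3359, 2817, 3979 and 4098 after knockdown. Its knockdown libraries formed a lower and a higher pair, the higher within the range of the controls, and the log2 fold change was −0.18 (standard error 0.109, edgeR adjusted p = 0.371). Without the second *Fezf2 shRNA* library it was −0.08. *Foxp2* had 1202, 1593, 963 and 1107 normalized counts in controls and 1041, 791, 1412 and 1667 after knockdown. The knockdown libraries held both its lowest and its highest value, so that the mean difference was near 0 (log2 fold change 0.01) with a wide 95% interval of −0.46 to 0.49 and an edgeR adjusted p of 0.982. *Tbr1* ranged from 2700 to 3855 in controls and from 2904 to 3474 after knockdown (log2 fold change −0.03, standard error 0.1004, edgeR adjusted p = 0.877).

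*Sox5* was the one gene of the 10 with a 95% interval above 0. It had 4927, 6292, 4403 and 4386 normalized counts in controls and 5854, 5129, 6432 and 6692 after knockdown. Control replicates 1, 3 and 4 lay below every knockdown library, while the second control library lay above 2 of them. The log2 fold change was 0.27 (standard error 0.121, 95% interval 0.0021 to 0.54, unadjusted p = 0.0485), with an edgeR adjusted p of 0.251 and an exact permutation p of 0.114. Without the second control library the log2 fold change was 0.40 and the edgeR adjusted p 0.0464, past the threshold. In that fit 368 of 9905 genes tested passed it, 335 of them increased, against 208 of 9959 with all libraries. *Sox5* has the longest interval of the 10 genes, 381 kb, and an antisense gene within it, *Sox5os1*, had 1.12% as many reads.

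The size of a difference went with the length of the gene over the whole table. Because the reads came from total RNA and were counted from the start to the end of each transcript, intron reads are part of every value. The median log2 fold change of the genes tested ran from −0.12 for 2154 genes with intervals under 10 kb, through −0.07 at 10 to 30 kb, 0.01 at 30 to 100 kb and 0.15 at 100 to 300 kb, to 0.29 for 407 genes over 300 kb. *Sox5* at 0.27 was close to the median of its class of over 300 kb, and *Ldb2* (328 kb), in the same class, was 0.18 below it. *Fezf2* (3.86 kb) was 0.17 below the median of its own class, the shortest, and *Crym* (15.7 kb) was 0.19 below that of the next. The farthest below its class was *Tle4* (150 kb), by 0.33. *Tbr1* (9.66 kb) was the one gene above its class median, by 0.08. When the trend with length was removed in each library by an offset, the log2 fold change was −0.18 for *Fezf2* (edgeR adjusted p = 0.465), −0.20 for *Crym* (0.443) and 0.01 for *Sox5* (0.983). *Tle4* moved farther from 0, to −0.32 (unadjusted p = 0.00673, edgeR adjusted p = 0.277), and had the lowest value of the 10 genes with the offset. *Bcl11b* was then at −0.23 (edgeR adjusted p = 0.514) and *Etv1* at −0.24 (0.575). *Ldb2* then changed sign, from 0.11 to −0.13. Length and treatment go together in these libraries, and the part of each difference that comes with length was not tested further.

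**Figure D2:**
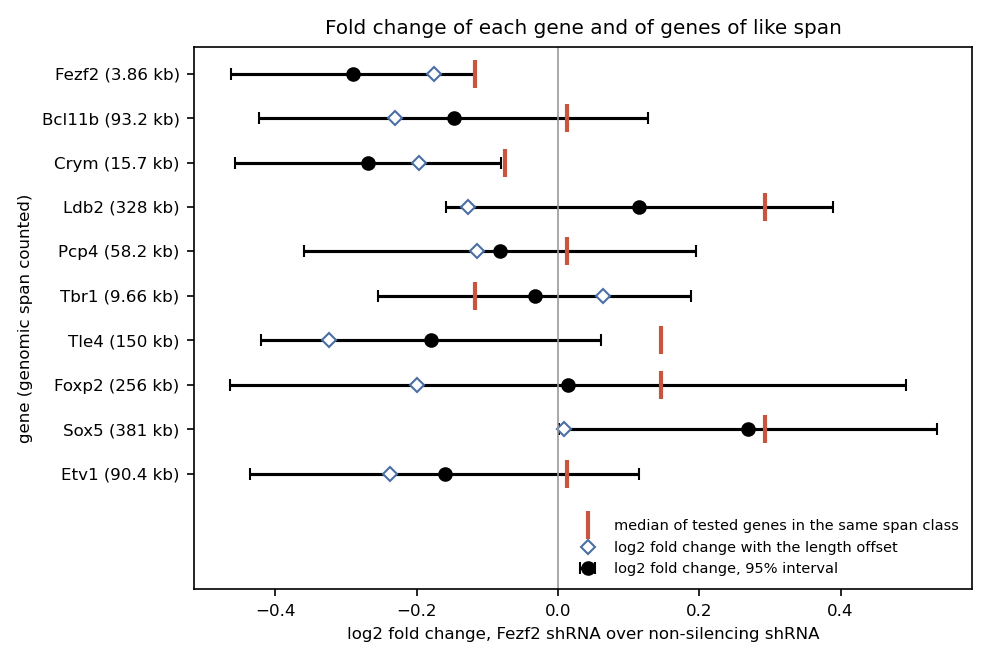
Log2 fold change of each gene, *Fezf2 shRNA* over *non-silencing shRNA* (horizontal axis, black points with 95% intervals), with the length of the interval counted in kb beside its name. Red ticks are the median log2 fold change of all tested genes in the same class of length and open diamonds the value with the length offset, which lies at −0.18 for *Fezf2* and 0.01 for *Sox5*.

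Per kb of the interval counted, the control levels ran from 336 ± 49.03 normalized counts for *Tbr1* to 4.76 ± 1.05 for *Foxp2* (SD, n = 4 each). *Fezf2* came second with 187 ± 9.18 per kb, then *Pcp4* with 69.3 ± 15.4, and *Crym* (38.2 ± 2.45), *Etv1* (35.1 ± 5.05), *Bcl11b* (28.6 ± 4.45) and *Tle4* (26.9 ± 1.78) followed. The ranges of neighbours in this last run of 4 genes overlapped, as did those of *Ldb2* (16.5 ± 2.17) and *Sox5* (13.1 ± 2.35), and the remaining neighbours in the order had separate ranges. The exons of the transcript used made up 56.7% of the interval of *Fezf2* but 1.90% of that of *Sox5*, so that this scale gives density over the gene and not the level of mRNA.

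For 4 genes a stretch of mostly annotated exon could be counted apart from the rest of the gene, as the difference between 2 nested transcripts, a choice made after the values were seen. The exonic stretch of *Bcl11b* (5007 bases) had 674 ± 62.4 normalized counts in controls and 572 ± 79.7 after knockdown (SD, n = 4 each). Its log2 fold change of −0.24 (standard error 0.117) stood beside −0.12 (0.135) for the rest of the gene, which is 3.52% exon and drew 75.4% of the reads. In *Etv1* 4 stretches of at least 80% exon could be formed, with log2 fold changes of −0.48 (standard error 0.245) to −0.13, and the one made wholly of exon (4907 bases) had a log2 fold change of −0.29 (standard error 0.159) and the rest −0.11 (0.136). *Tbr1* gave −0.03 and −0.05 and *Foxp2* 0.07 and 0.00 for exonic stretch and rest. The difference between exonic stretch and rest was within the spread between libraries in all 4 genes, with exact permutation p of 0.229 for *Bcl11b*, 0.2 for *Etv1*, 0.886 for *Tbr1* and 0.8 for *Foxp2*.

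**Figure D3:**
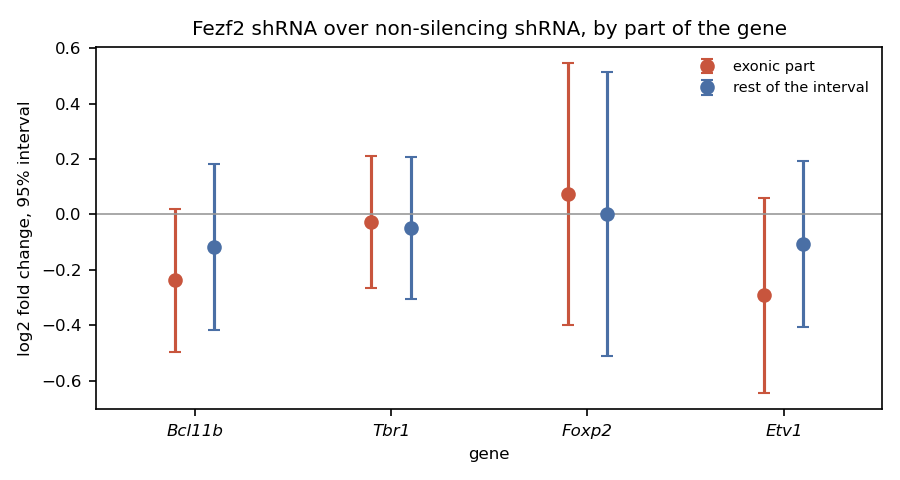
Log2 fold change with 95% intervals (vertical axis), *Fezf2 shRNA* over *non-silencing shRNA*, for a mostly exonic stretch (red) and the rest of the interval (blue) of 4 genes. All 8 intervals include 0, and the exonic stretches of *Bcl11b* (−0.24) and *Etv1* (−0.29) have the lowest values.

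As many as 5 of the genes, *Bcl11b*, *Tle4*, *Foxp2*, *Sox5* and *Tbr1*, were high and low in the same libraries within a treatment. The second control library had the highest value of the controls for all 5, the second *Fezf2 shRNA* library the lowest of the knockdown libraries for all 5, and the fourth *Fezf2 shRNA* library the highest. These 5 were grouped by this pattern after the values were seen, so their likeness was fixed by the choice. Over all 10 genes, the second control library was highest among controls for 8. Of 8 interneuron genes, 6 were highest among controls in the second library and 6 after knockdown in the fourth. *Foxp2* swung most, with the second control library 0.41 above its group mean on the log2 scale, the second knockdown library 0.58 below and the fourth 0.50 above. For *Bcl11b* these deviations were 0.31, −0.31 and 0.16. *Etv1* went the other way in these libraries, at −0.12, 0.22 and −0.09, and its highest control was the third library, at 0.27, where *Foxp2* and *Tbr1* were at their lowest among controls. *Fezf2* stayed between −0.07 and 0.09 in all 8 libraries.

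**Figure D4:**
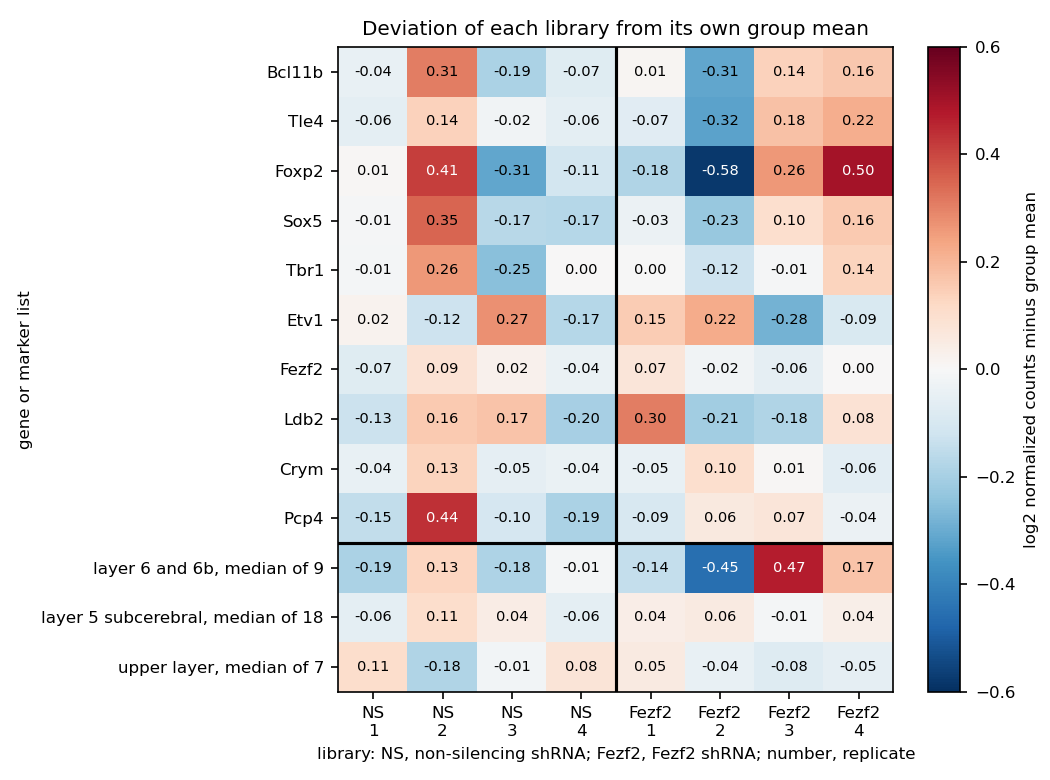
Log2 normalized counts of each library minus the mean of its own treatment (colour and printed value), for the 10 genes and, below the line, the median over the genes of 3 marker lists. The second *Fezf2 shRNA* library is blue for *Bcl11b*, *Tle4*, *Foxp2*, *Sox5* and *Tbr1*, with −0.58 for *Foxp2*, and for the layer 6 and 6b list, while *Fezf2* is pale throughout.

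Many, though not all, other markers of layer 6 and its deepest sublayer, 6b, shared 2 of these 3 features with the 5 genes. They were highest among controls in the second control library and lowest after knockdown in the second knockdown library. *Hs3st4*, a heparan sulfate sulfotransferase of layer 6, had 11005, 17338, 10497 and 12469 normalized counts in controls and 11400, 9742, 17025 and 16643 after knockdown. It too was highest among controls in the second library and lowest after knockdown in the second. Of the 10 genes of the list, 7 were highest after knockdown in the third library and 3 in the fourth, where the 5 genes were highest. In the second control library 6 of the 10 were highest among controls, and 9 were lowest after knockdown in the second knockdown library. *Rprm* was lowest among controls in that control library, at 380 normalized counts, and *Nr4a2* had 316 in that knockdown library against 211 to 495 in the other 3. The median deviation of 9 genes of that list was 0.13 in the second control library, −0.45 in the second knockdown library and 0.47 and 0.17 in replicates 3 and 4. The oligodendrocyte list varied alike over the knockdown libraries (median deviations −0.35, −0.38, 0.33 and 0.34) but was at −0.03 in the second control library, where the interneuron list was at 0.15. The meningeal list, 5 genes of which none passed the filter, summed to 348 normalized counts in the second control library against 884 to 1159 in the other controls. It summed to 1485 in the second *Fezf2 shRNA* library against 257 to 577 in the other knockdown libraries. The part that layer, meningeal or other cell content has in the values of the 10 genes was not tested. With both libraries numbered 2 left out, a choice made after the values were seen, the log2 fold change was −0.25 for *Fezf2* (edgeR adjusted p = 0.132), 0.06 for *Bcl11b* (0.645) and 0.47 for *Sox5* (0.0149), which then passed the threshold. In that fit 489 of 9792 genes tested passed it, 452 of them increased. The same step put *Foxp2* at 0.33 (edgeR adjusted p = 0.216), *Ldb2* at 0.23 (0.276), *Tle4* at −0.03 (0.814) and *Etv1* at −0.28 (0.218).

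No further gene of layer 5 or 6 passed the threshold with edgeR or DESeq2, and 3 of 14 tested genes of layer 5 and 0 of 4 of layer 6 had an unadjusted edgeR p under 0.05, where 19.6% of all genes tested did. Of 18 other genes of subcerebral layer 5 neurons, 14 were tested, 6 with a positive and 8 with a negative log2 fold change and a median of −0.06. *Parm1*, a mucin-like membrane protein, had the smallest p among those that were lower (log2 fold change −0.17, standard error 0.0687, edgeR adjusted p = 0.215), and *Tox*, an HMG-box factor, among those that were higher (0.24, standard error 0.101, adjusted p = 0.228). Of 10 genes of layer 6 and 6b, 4 were tested, with a median of −0.08 and *Zfpm2*, a cofactor of GATA factors, at −0.13 (standard error 0.112, edgeR adjusted p = 0.533). Of 7 genes of the upper layers, 6 were tested, 5 of them with a positive log2 fold change and a median of 0.16, and the lowest p belonged to *Cux1*, a homeobox factor (0.32, standard error 0.0955, edgeR adjusted p = 0.110). *Cux1* was the one upper-layer gene with an unadjusted p under 0.05 and passed the threshold with DESeq2.

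A further list held 16 genes that work with or against *Fezf2* in the developing cortex or belong to its network, the transmitter genes *Slc17a7* and *Gad1* among them. Of these, 11 were tested, with a median log2 fold change of 0.07, none past the threshold with edgeR and 3 past it with DESeq2 (7.55% of all genes tested). Those described here, *Bcl11a* and *Tle1*, had an unadjusted edgeR p under 0.05 and were higher after knockdown, with no overlap between treatments (7.41% of genes tested). *Bcl11a* (CTIP1, the relative of *Bcl11b*) had 3661, 4136, 4066 and 3924 normalized counts in controls and 4773, 4369, 5248 and 5277 after knockdown, a log2 fold change of 0.32 (standard error 0.0725, edgeR adjusted p = 0.0522). *Tle1*, a Groucho co-repressor like *Tle4*, ranged from 1591 to 1995 across controls and from 2159 to 2402 across knockdown libraries, a log2 fold change of 0.34 (standard error 0.0785, edgeR adjusted p = 0.0551). *Fezf1*, the paralog of *Fezf2*, was at 0 in 7 of 8 libraries and had 2 reads in the other.

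The genes whose levels followed *Fezf2* most closely over the 8 libraries were *Zfp687* (Pearson r = 0.98), *Washc1* (0.97), *Ccdc47* (0.96), *Polr2m* (0.96) and *Nelfcd* (0.96). The r was taken on log2 normalized counts, and the points share the difference between the treatments, library size and the trend with length. All 5 were lower after knockdown, and *Nelfcd*, a subunit of the negative elongation factor, was the one past the threshold (log2 fold change −0.39, edgeR adjusted p = 0.0379). Their intervals were short, from 7.50 kb for *Polr2m* to 18.9 kb for *Ccdc47*. *Crym* came 46th by the same measure (r = 0.88), and *Bcl11b* 2355th (0.45). With the mean of each treatment removed the order was another one, since r with *Fezf2* was then 0.29 for *Crym* and 0.87 for *Ldb2* (0.03 with the means kept), and 0.61 to 0.90 for the 5 genes above.

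The tissue carried the markers of cortical excitatory neurons throughout. The 7 genes of that list summed to 116732 to 128394 normalized counts in controls and 121018 to 137067 after knockdown, with *Slc17a7*, the vesicular glutamate transporter VGLUT1, at 27012 or more in every library. All 7 were tested, 3 with a positive and 4 with a negative log2 fold change. None passed the threshold with edgeR and 2 passed it with DESeq2, where 7.55% of all genes tested did. An unadjusted edgeR p under 0.05 was reached by 4, against 19.6% of all genes tested. The smallest p in each direction belonged to *Arpp21* (log2 fold change 0.25) and *Neurod2* (−0.18). Of the cell type lists, that of oligodendrocytes had the median farthest from 0. All 8 of 9 genes that were tested had a negative log2 fold change (median −0.53, none past the threshold with edgeR, 6 with an unadjusted p under 0.05 and 2 past it with DESeq2). The sum over all 9 genes ranged from 64359 to 116467 in controls and from 47665 to 78277 after knockdown. Counts on genes were 54684016 to 58003814 per library. For the deep-layer identity genes other than *Fezf2* and *Crym*, the coefficient of variation between libraries was 5.47% or more in each treatment. Counting alone, if every read were independent, would give them at most 2.86%.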

How the data were processed

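The authors prepared stranded total RNA libraries (TruSeq) from M1, trimmed the reads, aligned them to mm10 (GRCm38) with TopHat2 2.1.1 and counted them over the genomic interval of each Ensembl transcript with bedtools 2.26.0, per the study's methods and the submitters' processing notes. The deposited counts are raw reads per transcript, introns included, and transcripts of a gene share reads; no use of strand is stated. A second deposited table holds the authors' own DESeq2 comparison and was not used. The labels do not tie libraries to animals, and the study gives 4 mice per treatment, so p-values measure the spread between these samples.

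Of 94647 transcripts, 91320 were matched to GENCODE M21, and the other 3327 (1.82% of counts) were left out. Each gene was represented by its transcript of lowest Ensembl number, with 54684016 to 58003814 counts per library over 38031 genes. The intervals printed are those of M21, and 2 *Sox5* transcripts of unequal M21 length had identical counts, so the authors' intervals may differ. Genes above 8 CPM in 4 or more libraries were tested with edgeR 4.0.16 (TMM, quasi-likelihood, Benjamini-Hochberg) in R 4.3.3 without covariates. The 10 genes and the marker lists were chosen with earlier results of these data known. The text names all 10 genes, up to 2 genes of smallest p per direction in other lists, genes on which a result turns, and the 5 genes of highest r with *Fezf2*. *Slc17a7*, *Hs3st4* and *Fezf1* are named beyond this rule. Of the lists, the text prints results of the layer, partner, excitatory, interneuron, oligodendrocyte and meningeal lists. No list had a gene past the threshold with edgeR, and of those not printed the list of striatal projection neurons had 1 past it with DESeq2 (*Pde10a*, log2 fold change 0.49). A gene under the naming rule is not reported here but stays in the counts and sums over lists. Alternatives were other normalizations, filters, transcripts, DESeq2 1.42.0, a length offset (loess, span 0.3), the replicate block and leaving out libraries. On simulated counts for the 9959 genes with 200 changed, the test called 66% of genes lowered by 0.5 on the log2 scale and 98% of those lowered by 1. The largest difference among the 10 genes, −0.29 for *Fezf2*, was smaller than any simulated, so these rates do not give recovery at that size. Each simulated gene had the typical spread of genes of its level and not its own, with no trend with length.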

Additional observations from a re-analysis of the deposited data

Results flagged for a closer look

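In the second control library, *Crym* had 659 normalized counts against 578 to 585 in the other 3 controls, and *Pcp4* had 5373 against 3479 to 3704. In both genes the gap to the nearest library was above Dixon's 95% critical value for 4 samples. The 10 genes gave 20 groups of 4 libraries, and chance puts about 1 in 20 groups past that value. The cause was not tested.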

How the results depend on the processing

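*Fezf2* was lower after knockdown under all 18 alternatives, at a log2 fold change of −0.32 to −0.18 (−0.31 to −0.26 with 1 library left out). It passed the threshold under DESeq2 alone (−0.28, adjusted p = 0.0256), and its adjusted p ranged from 0.0256 to 0.465. Of the other alternatives, one of the 10 genes passed the threshold in those without the second control library, alone or with the second *Fezf2 shRNA* library, where *Sox5* passed (1 of 10 each; 0 to 1 with 1 library left out). The number of genes past the threshold was 752 with DESeq2 (1 of the 10 genes), 84 with a filter of more than 1 CPM, 103 with no filter, 90 with the replicate block, 2 with the length offset, 2 with the replicate block and the length offset, and 489 with both libraries numbered 2 left out. It was 0 to 368 with 1 library left out, 368 being without control replicate 2. It was 0 without control replicate 1 (1568 of 9871 genes at an unadjusted edgeR p under 0.05), 4 without control replicate 4 and 130 without control replicate 3. It was 13 without *Fezf2 shRNA* replicate 1, 9 without replicate 3 and 17 without replicate 4. The sign of *Foxp2* (0.01) turned with library totals (−0.0081), with the replicate block (−0.0102), with the length offset (−0.20), with both (−0.22) and over left-out libraries (−0.17 to 0.18). *Ldb2* turned with the length offset (−0.13) and with block and offset (−0.13). *Tbr1* turned with the length offset (0.064), with block and offset (0.0727), with both libraries numbered 2 left out (0.10) and over left-out libraries (−0.10 to 0.0606). *Pcp4* turned over left-out libraries (−0.14 to 0.0866) and without both libraries numbered 2 (0.0666), as did *Bcl11b* (0.0589) in the latter. Under the replicate block *Fezf2* was at −0.29 (adjusted p = 0.130). Deviations of same-numbered libraries correlated at 0.30, 0.08, −0.13 and 0.17, and those of unlike-numbered libraries at −0.22 to 0.27. Whether the replicate numbers pair the libraries was not tested. The causes of these changes were not tested.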
